A study of Mus musculus with 10 samples.

Results

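The kidneys described here were those of the 6 control mice, out of 10 kidneys sequenced in the series, and the kidneys of treated mice served only for a second reading of spread. The mice were UM-HET3 males of 4 months, littermates of the treated animals, kept for 1 month from the age of 3 months on the control diet (Purina 5LG6), while the other 4 mice ate the same diet with rilmenidine at 10 ppm. The labels call them biological replicates, 1 kidney library a mouse. The extraction text of the labels speaks of liver although the tissue is labelled kidney, and the methods of the study give a larger number of control kidneys than the 6 labelled and used here. PolyA RNA was read by a multiplexed protocol that samples transcript 3′ ends, so a level is given as CPM (reads of a gene scaled to a common library total) and is not divided by transcript length. Levels were scaled between kidneys by the median of gene-wise ratios (relative log expression, RLE). Of 43629 genes listed, 9930 had 6 or more reads in at least 4 of the 6 kidneys and were kept, 19287 had no read in any control kidney, and the kept genes held a median of 98.8% of the counts. Total counts were 863605, 1787638, 1187020, 1334020, 1644042 and 2559118 for control kidneys 1 to 6, and 14491 to 20087 genes had at least 1 read.

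The kidney filters blood in the glomerulus, recovers most of the filtrate in the proximal tubule, dilutes it in the thick ascending limb and adjusts salt, water and acid in the distal tubule and collecting duct. Proximal tubule cells make up most of the cortex, depend on mitochondrial oxidation and, in male mice, express many genes under androgen control. UM-HET3 is a stock bred from several inbred strains, in which every mouse carries its own combination of the parental alleles, and littermates are full siblings rather than copies.

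The marker lists were those of male kidney. Proximal tubule markers dominated, with summed levels of 43767 to 56636 CPM for 14 early-segment genes, against 2049.8 to 2814 CPM for 12 thick ascending limb genes and 242 to 338 CPM for 12 podocyte genes. The Y-linked helicase Ddx3y stood at 113 to 177 CPM in the 6 kidneys, and Xist, the RNA that silences an X chromosome in females, had 0, 4, 1, 1, 5 and 1 reads in kidneys 1 to 6. Markers of adrenal gland and urothelium were at or near 0, whereas fat markers were not. The 13 adrenal genes summed to 1.13 to 7.83 CPM, with 7 of them at 0 in all 6 kidneys, and the 10 urothelial genes to 3.35 to 12.4 CPM. The 11 genes of perirenal fat summed to 182 to 360.1 CPM with 5 kept, led by Fabp4, which endothelium also expresses, at 75.4 CPM, and with Lep at 0 in all 6 kidneys. Of 18 liver genes, 7 were kept. The liver's most abundant secreted protein gene, Alb, had 0, 20, 3, 6, 6 and 11 reads in kidneys 1 to 6, while the most abundant listed gene, Ttr, a thyroid hormone carrier, averaged 557 ± 187 CPM (SD, n = 6).

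**Figure D1:**
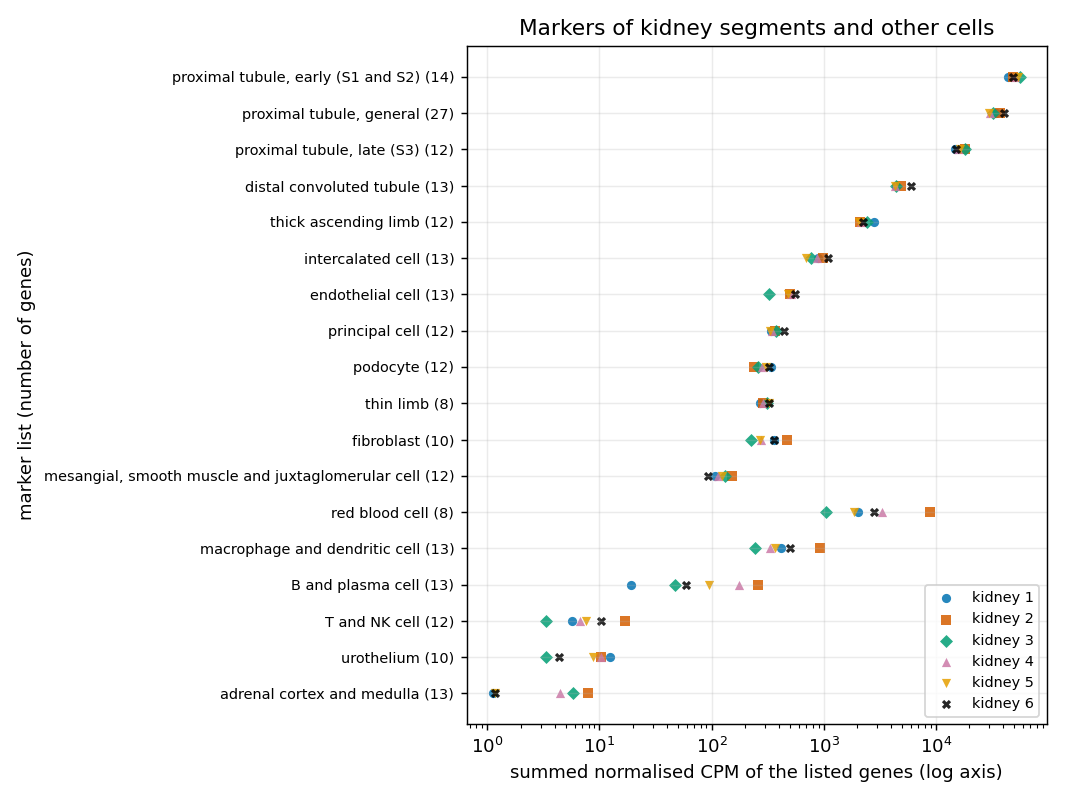
Summed normalised CPM (horizontal log axis) of 18 marker lists (rows, with the number of genes in each list) in the 6 control kidneys, 1 symbol per kidney. The 3 proximal tubule lists lie highest and close together between kidneys, while the red blood cell, macrophage and B cell lists spread widely with control kidney 2 at the top, at 8920.0, 919.7 and 260.3 CPM.

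Control kidneys 2 and 6 stood apart from the rest in several measures that are given beside the results below. Kidney 2 had the most haemoglobin reads, with summed levels of 1936, 8853, 989, 3249.6, 1816 and 2739 CPM in kidneys 1 to 6, and the fewest mitochondrial reads, with 14.1, 7.09, 9.26, 15.2, 12.8 and 13.1% of counts. It also held the most reads on a family of repeat-sequence genes, whose shares of the counts were 0.947, 11.2, 5.07, 0.742, 1.57 and 0.0504%, the lowest share being that of kidney 6. Kidney 6 had the largest library and kidney 2 the most genes with a read. Both had the lowest levels of the nuclear RNA Malat1.

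The most abundant transcript of the control kidney was Kap, which encodes the androgen-regulated protein of the male proximal tubule. Its levels in kidneys 1 to 6 were 31612, 37087, 46712, 40742, 43987 and 36427 CPM, with a mean of 39428 ± 5498 (SD, n = 6), and the highest kidney stood only 1.48 times above the lowest. The 10 most abundant genes together held a median of 18.8% of the counts (17.9 to 20.4%), and the first 50 held 30.8% (30 to 34.7%). Among the 25 most abundant genes were transcripts of the mitochondrial genome, metabolic and transport genes of the proximal tubule, genes of general cell function, and the predicted genes Gm10800, Gm10722 and Gm10801.

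Mitochondrially encoded genes supplied 7 of the 25, namely mt-Nd1, mt-Nd2, mt-Nd4, mt-Nd5, mt-Nd6, mt-Cytb and mt-Rnr2. The complex I subunit mt-Nd4 averaged 26138 ± 5670.2 CPM, mt-Cytb of complex III 20929.8 ± 5713 CPM and the large ribosomal RNA mt-Rnr2 19079.8 ± 8983 CPM (SD, n = 6). Kidney 2 was lowest for each of these 3 genes. The block was uneven within the mitochondrial genome, as the following genes show, which were named after their values were seen. Cytochrome oxidase subunit mt-Co1 averaged 439 ± 98.8 CPM, mt-Co2 had 2, 1, 3, 6, 12 and 5 reads in kidneys 1 to 6, mt-Co3 ranged from 0.837 to 6.77 CPM, and the short genes mt-Atp8 and mt-Nd4l had no read in any kidney. Since CPM depends on how 3′ ends and multiply mapping reads were counted, these levels do not order the transcripts in the cell. The mt-Nd6 gene, which lies on the opposite strand to its neighbours, averaged 14100.2 ± 3785 CPM, and the strand setting of the counting is not given in the sources used here.

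Genes of metabolism and transport followed. Acsm2, a medium-chain acyl-CoA synthetase, stood at 6994, 6401, 7696, 7588, 7064 and 6708 CPM in kidneys 1 to 6, a coefficient of variation (CV, the SD over the mean) of 7.05%. Gpx3, the glutathione peroxidase secreted into plasma, averaged 6729 ± 1516 CPM, and Slc34a1, the main phosphate transporter of the brush border, 6041 ± 788 CPM (SD, n = 6). Cyp4b1 and Acy3, listed here as markers of the late S3 segment, averaged 5499 ± 373 and 5112 ± 729.9 CPM, and Miox, which opens the ring of inositol, 2812 ± 638 CPM. Among these genes the highest level was 1.21 times the lowest for Cyp4b1, 1.35 times for Slc34a1, 1.65 times for Gpx3 and 1.82 times for Miox. Further members of the 25 were Keg1, a glycine acyltransferase-like gene, the selenium carrier Selenop, the lysosomal membrane protein Lamp1, the aldehyde reductase Akr1a1, the ATP synthase subunit Atp5g3, the ferritin heavy chain Fth1 and the haem protein Cyb5a, with means between 3251 and 4567 CPM.

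**Figure D2:**
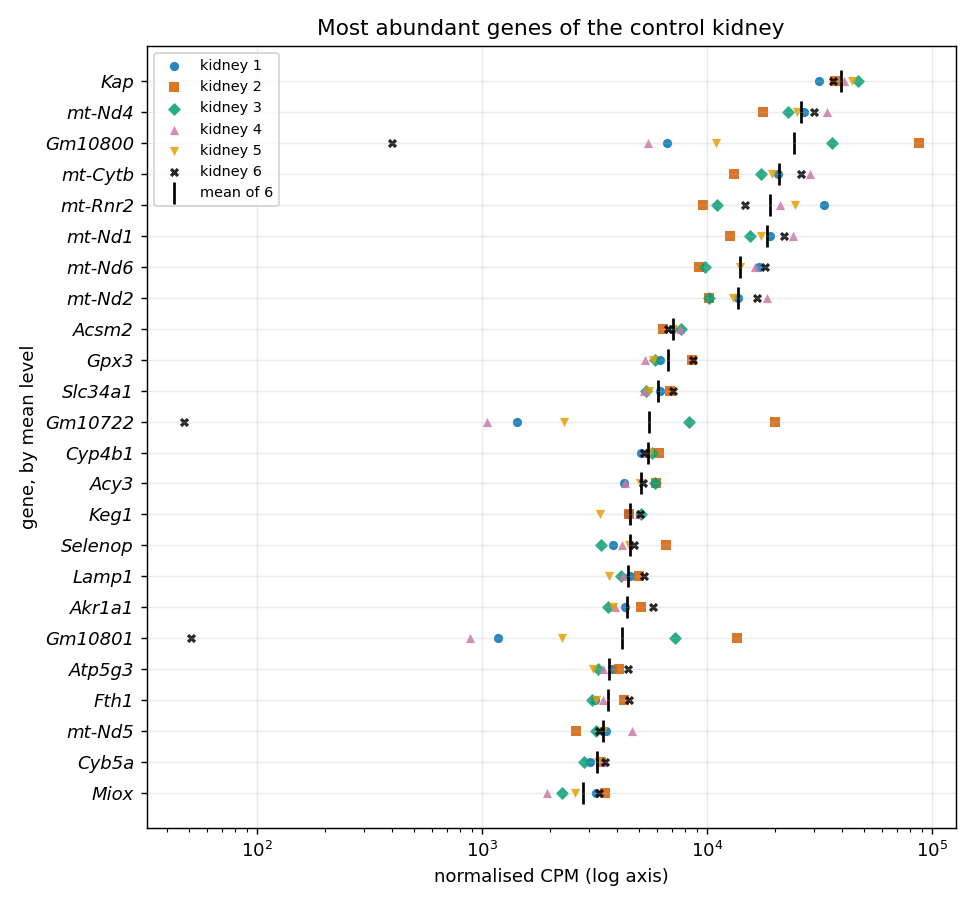
Normalised CPM (horizontal log axis) of 24 of the 25 genes with the highest mean level, 1 symbol per control kidney and a bar for the mean of 6. Kap leads at a mean of 39428 CPM, the other genes except mt-Rnr2 and mt-Cytb vary within a factor of 2, and the 3 predicted genes Gm10800, Gm10722 and Gm10801 run from 47.2 CPM in kidney 6 to 87386 CPM in kidney 2.

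Segment markers were most abundant in the proximal tubule. The 14 early proximal genes held a mean of 5.07% of the counts, most of it Kap, the 27 general proximal genes 3.42%, and the 12 late proximal genes 1.64%. Outside the 25 most abundant genes, the proximal lists held the endocytic receptor Lrp2 at 1060.3 ± 167 CPM, the fatty acid transporter Slc27a2 at 1395 ± 252 CPM, Pck1, the entry enzyme of gluconeogenesis, at 1440.4 ± 308 CPM and fructose bisphosphatase Fbp1 at 662 ± 161 CPM. Among cytochrome P450 genes, Cyp2e1 averaged 2206 ± 394 CPM and the male-specific Cyp4a12a 1809.5 ± 275 CPM. Fxyd2, a regulator of the sodium pump that powers this transport, averaged 2466 ± 329.8 CPM.

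Downstream segments and non-epithelial cells gave lower sums. Umod, which encodes an abundant urinary protein, led the thick ascending limb. Its levels were 1459.5, 976, 1175, 971, 917 and 999 CPM in kidneys 1 to 6. In the distal convoluted tubule the sodium-chloride cotransporter Slc12a3 averaged 116 ± 21.9 CPM, and the calcium-binding S100g 822 ± 277 CPM. The water channel Aqp2 of principal cells averaged 68.7 ± 10.5 CPM, the cortisol-inactivating enzyme Hsd11b2 78.7 ± 22.8 CPM and the carbonic anhydrase Car2 of intercalated cells 455 ± 103 CPM. Podocytes contributed the slit-diaphragm adaptor Cd2ap at 143 ± 13.3 CPM, and endothelium contributed Plvap at 90.9 ± 24 CPM. In whole tissue, fewer cells of a type and less RNA per cell cannot be told apart.

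To describe spread, each gene's CV over the 6 kidneys was set against the CV expected at its mean level, read from a smoothed curve through all 9930 genes. The median CV was 23.4%, and counting alone would give a median CV of 16.4% at these depths. The spread fell with level, from a median CV of 39.0% in 1996 genes under 10 CPM to 14.6% in 1207 genes between 100 and 300 CPM, where counting error accounts for a CV of 6.99%. Among the 100 genes at 1000 CPM or more the median CV was 15.5%, far above the counting CV of 2.05%. A test of each gene against counting error alone (deviance of a Poisson fit in edgeR, Benjamini-Hochberg adjusted) was passed by 4325 of 9930 genes, or 43.6%. Reads amplified from 1 molecule would also add to this number, and the handling of molecular identifiers is not given in the sources used here.

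Genes whose CV was at least 2 times the expected value, called high-spread here, numbered 400 of 9930, or 4.03%. Since they were chosen by their spread, their values are given as a description with no further test of their spread. The outlier gap given in the flagged results uses the same values and only marks single kidneys. Of the 400, 95 reached 3 times the expected CV, and in 66 the highest kidney had at least 10 times the level of the lowest or the lowest was at 0. The share rose with level, from 1.55% of genes under 10 CPM to 15% of those at 1000 CPM or more. Just inside the limit stood Gm4117, the pseudogene Gm8292 and Sestd1, and just outside it D2hgdh, Slc43a3 and Cpsf6, all 6 with ratios of 2.00 after rounding. For Sestd1 the CV was 33.2% where 16.5% was expected, and for Cpsf6 31.3% where 15.7% was expected. Kidney 5 was the highest for 88 of the 400 genes (22%), against 15.6% of all 9930 genes, and kidney 2 for 84 (21%), against 18.0% of all. Kidney 6 was the lowest for 105 (26.3%), against 15.3% of all, and kidney 2 for 88 (22%), against 18.0%. Kidneys 2 and 6 together were the lowest pair for 127 of the 400 (31.8%), against 13.5% of all kept genes. Of the 108 high-spread genes named in the text, 44 fell under the limit when some 1 kidney was left out, 9 no longer passed the filter on reads, and 55 held whichever kidney was left out. Counts of high-spread members of a list are to be set beside the 4.03% of all genes, and counts of members highest in kidney 2 beside the 18.0%.

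**Figure D3:**
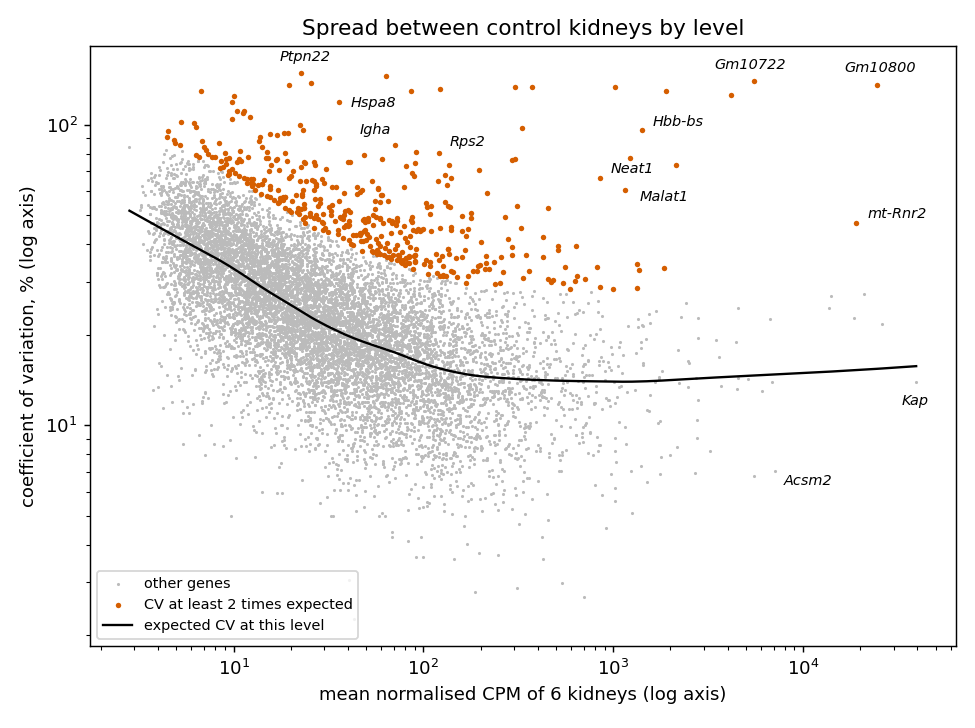
Coefficient of variation over the 6 control kidneys (vertical log axis, %) against mean normalised CPM (horizontal log axis) for 9930 genes, with the expected CV as a black curve and the 400 high-spread genes in orange. Repeat-sequence genes, haemoglobin genes and Ptpn22 lie far above the curve, and Kap, at a CV of 13.9%, lies just below it.

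The widest spread in the kidney belonged to predicted genes, most of which share a repeated sequence. Gm10800 at chr2:98666547-98667301 (minus strand, mm10) had levels of 6656, 87386, 35997, 5459.6, 10962 and 400.4 CPM in kidneys 1 to 6, so that it was the third most abundant gene on average and 218 times higher in kidney 2 than in kidney 6. Gm10722 at chr9:3000922-3002330 (plus strand) had 1432, 20117, 8326, 1050.0, 2309 and 47.2 CPM, and Gm21738 at chr14:19415857-19418930 (minus strand) had 581, 6491, 2982, 452, 908 and 31.1 CPM. All 3 genes put the kidneys in the same order, kidney 2 first, kidney 3 second and kidney 6 last. The genes lie on different chromosomes, are annotated as protein coding by GENCODE, and match themselves best at a shift of 225 bases in Gm10800 and 234 bases in the other pair, with identities of 56.3% for Gm10800, 65.2% for Gm10722 and 62.4% for Gm21738. Their sequences are shown because 1 run of 43 bases, in capitals, is shared by all 3. How reads from the shared run were assigned was not tested. The windows are 120 bases of each annotated transcript, from base 541 of Gm10800, base 388 of Gm10722 and base 184 of Gm21738, written 5′ to 3′.
Gm10800: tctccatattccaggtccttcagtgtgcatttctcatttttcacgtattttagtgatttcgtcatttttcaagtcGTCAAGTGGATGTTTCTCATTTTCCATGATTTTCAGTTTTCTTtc
Gm10722: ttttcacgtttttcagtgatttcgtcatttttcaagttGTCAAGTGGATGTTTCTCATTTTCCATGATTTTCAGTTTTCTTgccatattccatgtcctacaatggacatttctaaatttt
Gm21738: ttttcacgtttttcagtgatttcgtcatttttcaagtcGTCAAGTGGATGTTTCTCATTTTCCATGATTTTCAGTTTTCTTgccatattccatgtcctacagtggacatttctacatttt

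The same 43-base run or its reverse complement was found in transcripts of 10 genes among 55450 with annotated transcripts. Of the 10, 9 were kept. All 9 were high-spread, among them Gm10800, Gm10722, Gm21738, Gm10717, Gm10718, Gm10719, Gm11168 and Gm17535. Gm10717 (9.53 times the expected CV) and Gm10722 (9.50 times) stood at the head of all genes. Gm10720, which does not hold the run, had 6.04 times the expected CV. Gm10801 on chromosome 2, which holds no copy of the run, ordered the kidneys the same way, as did the noncoding Gm26870 on chromosome 9. Levels of Gm10801 were 1174, 13579.7, 7206, 881, 2277 and 50.7 CPM. The 10 genes that hold the run summed to 9236, 120863, 50382, 7369, 15078 and 507 CPM in kidneys 1 to 6, from 0.0504% to 11.2% of the counts. Reads on the 1661 olfactory and vomeronasal receptor genes, the sensory receptors of the nose, moved with them, at 79, 358, 177, 51.3, 93.9 and 9.05 CPM. The source of these reads was not tested. Without kidney 2 the ratio of Gm10800 was 8.21, and without kidney 6 it was 8.07.

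Among haemoglobin genes, the products of circulating red cells, 4 were high-spread. Hbb-bs at chr7:103826534-103828096 stood at 783, 4098, 416, 1293, 629 and 1281 CPM in kidneys 1 to 6, a CV of 96% where 14% was expected. Hba-a1 at chr11:32283511-32284465 stood at 779, 3066, 399, 1305, 815 and 969 CPM. Kidney 2 held the highest level and kidney 3 the lowest of Hbb-bs, Hbb-bt, Hba-a1 and Hba-a2, and all 4 remained high-spread without kidney 2, with ratios of 3.37, 3.09, 2.90 and 3.20. The globin pairs share sequence, so the split between paralogs is uncertain. The erythroid enzyme gene Alas2 had 0, 0, 0, 0, 2 and 0 reads in kidneys 1 to 6.

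Many immune genes were highest in kidney 2. Of 9 kept macrophage and dendritic cell genes, 6 were high-spread (66.7%, against 4.03% of all genes), and 8 of the 9 were highest in kidney 2 (against 18.0% of all genes), while the median ratio of the list was 3.12 against 1.00 for all genes. The remaining member, the macrophage growth factor receptor Csf1r, named after its values were seen, had 20.3, 19.3, 31, 27.5, 23.9 and 22 CPM in kidneys 1 to 6 and was lowest in kidney 2. H2-Aa, a chain of the class II molecule that presents antigen, had 124, 275, 72, 102, 98 and 136 CPM in kidneys 1 to 6, and its partner H2-Ab1 had 133, 275, 67, 83.3, 122 and 149.8 CPM. The invariant chain Cd74 followed with 47.4, 96.4, 15.9, 29, 37.9 and 51.5 CPM and the lysozyme Lyz2 with 14.7, 65.1, 11.7, 29.8, 18.1 and 19.3 CPM. Kidney 2 lay above the other 5 in each of these genes, and kidney 3 was lowest. Without kidney 2 the ratio was 1.56 for H2-Aa, 2.12 for H2-Ab1, 1.99 for Cd74 and 1.46 for Lyz2. Of 14 kept class I and class II genes, 7 were high-spread, B2m among them, and 11 were highest in kidney 2. Cd74, H2-Aa, H2-Ab1 and H2-Eb1 belong both to this list and to the macrophage and dendritic cell list. Without kidney 3 the ratio of B2m fell from 2.18 to 1.79, and without kidney 4 that of H2-D1 from 2.25 to 1.86. The macrophage and dendritic cell list summed to 414, 919.7, 244, 331, 369 and 499 CPM, and its most abundant gene was H2-Ab1. The complement gene C1qb was among its high-spread members, with a ratio of 2.09 that fell to 1.85 without kidney 2. The list's defining macrophage gene Adgre1 had 0, 8, 1, 2, 4 and 5 reads.

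Of 8 kept interferon-induced genes, 4 were highest in kidney 2 (against 18.0% of all genes), among them all 3 that were high-spread (37.5%, against 4.03%). The interferon-inducible GTPase gene Igtp had 16.9, 68.7, 14.2, 14.9, 11.1 and 13.8 CPM in kidneys 1 to 6, Gbp2 had 7.90, 33.1, 6.70, 3.72, 1.17 and 6.29 CPM and Iigp1 had 13.5, 37.4, 5.86, 11.2, 4.67 and 9.44 CPM. The phosphatase Ptpn22, which restrains lymphocyte signalling, had 14.7, 91, 6.70, 8.19, 7.58 and 7.87 CPM, a CV ratio of 6.19. Without kidney 2 these ratios dropped to 0.52 for Igtp, 1.22 for Iigp1 and 1.06 for Ptpn22, and the number of high-spread macrophage list genes to 2 of 8. Gbp2 no longer passed the filter on reads without kidney 1, 2, 3 or 6. The interferon list held 26 genes, and T and NK cell genes were too low to be kept, at 5.64, 16.9, 3.35, 6.70, 7.58 and 10.2 CPM summed over 12 genes. Whether kidney 2 held more immune cells was not tested.

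All 4 kept B and plasma cell genes were highest in kidney 2, and 3 of them were high-spread. The immunoglobulin A heavy chain Igha at chr12:113254830-113260236 had 11.3, 157, 23.4, 134, 64.2 and 36.6 CPM in kidneys 1 to 6, high in kidneys 2 and 4 and low in kidney 1. The joining chain Jchain, which links immunoglobulin A into dimers, had 1.13, 46.4, 10, 17.9, 17.5 and 9.05 CPM and the kappa chain Igkc 1.13, 35, 4.19, 10.4, 5.83 and 3.93 CPM, both also lowest in kidney 1. The ratio of Igha was 4.90 with all kidneys and 5.08 without kidney 2, whereas that of Jchain fell from 3.45 to 2.00 and Igkc no longer passed the filter without kidney 2, 4, 5 or 6. Of the B cell surface genes, Ms4a1 had 0, 13, 1, 0, 1 and 1 reads in kidneys 1 to 6, while Cd79a had none.

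Several nuclear noncoding RNAs were lowest in kidneys 2 and 6. Malat1, a noncoding RNA retained in nuclear speckles, had 1490.0, 400.2, 1192, 1468, 2118 and 286 CPM in kidneys 1 to 6, and Neat1, the scaffold of paraspeckles, had 537, 209, 1438, 1269, 1346 and 296 CPM. Kidneys 2 and 6 were the lowest pair for both and also for Snhg11 (67.7, 31.9, 72.8, 72.2, 125 and 22.8 CPM). Of 7 kept genes of the list named for nuclear noncoding RNAs, 5 were high-spread, with a median ratio of 2.97 over the 7. Gas5, among these 5, was high in kidney 1 alone and had a ratio of 2.09 with that kidney and 0.90 without it. Among genes named here after their values were seen, the splicing factor Srsf11 had 287, 159, 375, 441, 521 and 167 CPM, the kinase Clk1 that phosphorylates such factors 98.2, 42.2, 135, 135, 178 and 39.3 CPM, and Pnisr and Rsrp1, of the same class of serine-arginine proteins, from 69.2 to 278 and from 228 to 694 CPM. With kidneys 2 and 6 left out, the ratio was 2.64 for Malat1, 3.67 for Neat1, 1.98 for Pnisr and 0.98 for Rsrp1. The mitochondrial share, the library size and the repeat-gene reads also set kidneys 2 or 6 apart, and their part in this pattern was not tested.

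Mitochondrial ribosomal RNA varied more than mitochondrial messenger RNA. The small ribosomal RNA mt-Rnr1 had 2734, 682, 1564, 2428, 4841 and 643 CPM in kidneys 1 to 6 and mt-Rnr2 had 33166, 9634, 11139, 21086, 24621 and 14834 CPM. Their CV ratios were 5.18 and 3.09, while mt-Nd4, mt-Cytb and mt-Nd1 had ratios of 1.40, 1.78 and 1.49. Kidney 5 was highest for mt-Rnr1 and kidney 1 for mt-Rnr2.

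Another set of genes was lowest in kidneys 3 and 5, and whether these form separate levels was not tested. Rps2 at chr17:24718116-24721929, a protein of the small ribosomal subunit, had 161, 98.8, 12.6, 186, 12.2 and 249.7 CPM in kidneys 1 to 6, so that kidneys 3 and 5 lay near 12 CPM and the other 4 at 98.8 CPM or more. Rps18 at chr17:33951999-33956001, also a ribosomal protein, had 45.2, 23.5, 7.53, 39.4, 7.58 and 52.3 CPM, and H2-K1 at chr17:33996017-34000347, a class I antigen-presenting molecule beside it on chromosome 17, had 155, 189, 47.7, 186, 30.3 and 169 CPM. Kidneys 3 and 5 were the lowest pair for all 3 genes. Profilin Pfn1 and the membrane protein Tm4sf5, 140672 bases apart on chromosome 11 and named after their values were seen, had 164, 131, 34.3, 122, 30.3 and 232 CPM and 35, 22.3, 4.19, 34.2, 1.17 and 44.8 CPM, again with kidneys 3 and 5 lowest, and Tm4sf5 no longer passed the filter without kidney 1, 2, 4 or 6. Rps2 shares a run of at least 50 bases near its 3′ end with 63 other genes and H2-K1 with 24, whereas none was found for Pfn1 or Tm4sf5.

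Other high-spread genes had their lowest or highest levels in different kidneys. The X-linked pseudogene Gm6222 had 566, 266, 446, 478, 27.4 and 33.4 CPM, low in kidneys 5 and 6. Cryzl2, a quinone oxidoreductase-like gene, had 239, 386, 36.8, 32.7, 215 and 271 CPM, low in kidneys 3 and 4. The constitutive heat shock chaperone Hspa8 at chr9:40800984-40810087 had 13.5, 6.03, 2.51, 11.9, 95.7 and 86.9 CPM, high in kidneys 5 and 6. The kallikrein Klk1b22 had 1.13, 33.7, 0, 13.4, 67.1 and 2.36 CPM, while Klk1, the kidney's main kallikrein, ranged from 1066 to 1816 CPM, and the reads behind Klk1b22 were 1, 56, 0, 18, 115 and 6 in kidneys 1 to 6, so that it no longer passed the filter without kidney 2, 4, 5 or 6. The pseudogene Gm6300 had 63.2, 50, 151, 286, 219.9 and 48 CPM, high in kidneys 3, 4 and 5.

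Of 58 kept genes of the cytosolic ribosome, 7 (12.1%, against 4.03% of all genes) were high-spread, namely Rpl21, Rpl26, Rpl29, Rps18, Rps2, Rps25 and Rpsa. Rpl26 had 148, 60.3, 9.21, 75.2, 70.6 and 173 CPM and Rpl29 2.26, 20.5, 30.1, 36.5, 24.5 and 1.18 CPM in kidneys 1 to 6. The ratio of Rpsa was 2.23 with all kidneys and 1.44 without kidney 4. That of Rps25 was 2.21 with all kidneys and 1.77 without kidney 3. Rpl29 no longer passed the filter without kidney 2, 3, 4 or 5. The median ratio of the 58 was 1.13. Ribosomal protein genes have many processed pseudogenes, so counts of these genes depend on how multiply mapping reads were handled. Among 72 kept nuclear genes of oxidative phosphorylation Atp5g1 was the only high-spread gene (1.39%, against 4.03% of all genes), and the median ratio was 1.01 for the list and 1.00 for all genes. Without kidney 2 the list held 3 high-spread genes, and without kidney 3 the ratio of Atp5g1 was 1.92.

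Androgen-dependent and transport genes of the proximal tubule contributed a further block. Of 12 androgen-dependent genes, all kept, 6 were high-spread (50%, against 4.03% of all genes), with a median ratio of 1.90 over the 12, although Kap itself was not among them at 0.887. The organic anion transporter Slc22a30 had 279.9, 212, 663, 615, 716 and 219.8 CPM in kidneys 1 to 6, and Slco1a1, another anion transporter, had 446, 629, 866, 920.5, 918 and 489 CPM. Odc1, the first enzyme of polyamine synthesis, had 173, 318, 504, 306, 496 and 295 CPM and Nudt19, a coenzyme A hydrolase, 794, 1433, 1312, 1695, 1960.0 and 853 CPM. Kidneys 3 and 5 stood above kidneys 1 and 6 in each of these 4 genes. Slc22a19, a transporter of the same cluster on chromosome 19, had 84.7, 54.2, 235, 87.8, 57.7 and 28.3 CPM and was highest in kidney 3, as was Cyp7b1, which hydroxylates steroids, at 36.1, 25.9, 81.2, 38.7, 29.2 and 16.9 CPM. Without kidney 3 the ratio fell from 4.93 to 2.20 for Slc22a19 and from 2.95 to 1.38 for Cyp7b1. Without kidney 1 it was 1.91 for Odc1, 1.98 for Nudt19 and 1.76 for Slco1a1. The lysosomal enzyme gene Gusb, another member of the list, had 103, 271, 197, 178, 125 and 81 CPM with kidney 2 highest.

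Of 22 kept cytochrome P450 genes, 8 were high-spread, namely Cyp24a1, Cyp2a5, Cyp2d26, Cyp2d9, Cyp4a12b, Cyp4a31, Cyp51 and Cyp7b1. Cyp51, of sterol synthesis, had 179, 159, 528, 249, 261 and 241 CPM, with kidney 3 alone high, and it was the only high-spread gene of 18 kept in cholesterol synthesis. Cyp24a1, which inactivates vitamin D, had 33.9, 42.2, 92.9, 54.3, 47.8 and 53.9 CPM. Without kidney 3 the ratio fell from 3.44 to 1.43 for Cyp51 and from 2.05 to 0.99 for Cyp24a1, and without kidney 6 from 2.21 to 0.62 for Cyp4a12b. Against 4.03% of all genes, 3 of 31 kept fatty acid oxidation genes (9.68%) were high-spread, Acaa2, Acot1 and Cyp4a12b, and 2 of 29 kept antioxidant genes (6.9%), Gclc and Gsta2. Without kidney 2 these counts were 5 of 30 and 3 of 29, and without kidney 6 they were 3 of 30 and 1 of 29. The ratio without kidney 5 was 1.91 for Acot1, 1.86 for Acaa2 and 1.75 for Cyp2a5. That of Acaa2 was 1.89 without kidney 6. Among proximal tubule markers the meprins Mep1a and Mep1b, the organic anion transporters Slc22a7 and Slc22a13, the lactate transporter Slc5a12 and the arginine synthesis enzyme Ass1 were high-spread with ratios between 2.03 and 2.70. Except for Mep1b these calls did not hold when 1 kidney was left out, with ratios of 1.82 for Slc22a7, 1.82 for Slc22a13 and 1.79 for Slc5a12 without kidney 3, 1.93 for Ass1 without kidney 4 and 1.79 for Mep1a without kidney 2.

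Past the proximal tubule few markers were high-spread, in lists too short to set apart from the 4.03% of all genes. None was among 9 kept podocyte, 4 thin limb, 10 principal cell, 11 intercalated cell and 13 endothelial genes, nor among 7 of the sodium pump and 11 of gluconeogenesis, although 1 podocyte gene was high-spread without kidney 2 and 1 without kidney 6. In the thick ascending limb the cotransporter Slc12a1 alone of 10 kept genes was high-spread, at 287, 116, 213, 199, 232 and 122 CPM in kidneys 1 to 6, with kidneys 2 and 6 lowest. In the distal convoluted tubule the calcium-binding proteins Pvalb and S100g were high-spread among 11 kept genes (18.2%). Pvalb had 97.1, 177, 59.4, 109, 157 and 237 CPM and S100g 615, 836, 750.1, 730.0, 636 and 1363 CPM, both highest in kidney 6, and without that kidney the ratio of S100g fell from 2.41 to 0.96. Pvalb is also a gene of fast skeletal muscle, whose list also held Mylpf with 1, 6, 0, 0, 1 and 7 reads and Myh1 with 0, 3, 1, 0, 0 and 0 reads in kidneys 1 to 6, and Acta1 and Ckm with none. The part of muscle in the level of Pvalb was not tested.

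Smaller lists completed the picture. Of 8 kept clock genes that peak with Dbp, 3 were high-spread (37.5%, against 4.03% of all genes), Nr1d1, Nr1d2 and Per3. Without kidney 1 the ratio was 1.56 for Nr1d2 and 1.42 for Per3. Nr1d1, a repressor of the core clock, had 31.6, 28.9, 8.37, 14.1, 11.7 and 42.5 CPM in kidneys 1 to 6, lowest in kidney 3. No time of death is given in the sources used here. Of 7 kept genes of the opposite clock phase none was high-spread, and 1 was without kidney 2 or kidney 6, while none of 12 kept immediate early genes was high-spread. Of 13 kept heat shock genes 3 were, namely Hspa1b, Hspa8 and Hspe1. The stress genes Cdkn1a and Clu were high-spread among 10 kept genes of tubular injury, whose best known marker, Havcr1, was not kept. The ratio of Clu fell from 2.05 to 0.86 without kidney 6 and that of Cdkn1a from 2.70 to 1.31 without kidney 5. The matrix gene Dcn had 58.7, 123, 30.1, 41.7, 53.1 and 48.4 CPM and the smooth muscle gene Tagln 3.39, 21.7, 3.35, 10.4, 10.5 and 5.11 CPM, both highest in kidney 2, where the ratio of Dcn without that kidney was 1.29 and Tagln no longer passed the filter without kidney 2, 4, 5 or 6. The fat gene Car3 had 133, 61.5, 54.4, 46.1, 51.3 and 62.1 CPM, highest in kidney 1 and with a ratio of 0.70 without it, while the whole fat list summed to 360.1, 225, 243, 182, 187 and 216 CPM, also highest in kidney 1, and its most abundant gene Fabp4 had 98.2, 89.2, 67.8, 66.2, 44.9 and 86.1 CPM. The part of fat in the level of Car3 was not tested. The lipase inhibitor Angptl4, also highest in kidney 1, had 44, 12.1, 5.86, 7.44, 12.8 and 30.3 CPM. Angiotensinogen, Agt, was the only high-spread gene among 9 kept of the renin-angiotensin list, with 9.03, 18.7, 7.53, 5.21, 15.2 and 29.5 CPM and a ratio of 1.62 without kidney 6.

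All 3 kept protease inhibitor genes of the Serpina1 cluster on chromosome 12 were high-spread, and 1 of 3 was without kidney 2. Serpina1d had 26, 14.5, 41, 49.9, 32.1 and 17.7 CPM and Serpina1f 20.3, 4.22, 45.2, 40.2, 16.9 and 9.83 CPM in kidneys 1 to 6, both higher in kidneys 3 and 4 than in kidneys 2 and 6, whereas Serpina1b had 9.03, 33.7, 5.86, 4.46, 2.92 and 6.69 CPM with kidney 2 alone high and a ratio of 1.06 without it. Together with Alb, Fga and Ttr, Serpina1b and Serpina1d made 5 high-spread genes among 7 kept of the liver list. Without kidney 2 only 1 of 6 kept was high-spread, with ratios of 1.73 for Ttr and 1.84 for Serpina1d. Alb no longer passed the filter without kidney 2, 4, 5 or 6, and the ratio of Fga was 1.52 without kidney 3. Of the 35 genes listed for structural or null alleles among inbred strains, 11 were kept and 2 were high-spread (18.2%, against 4.03% of all genes), Cyp2d9 with 63.2, 139, 139, 95.2, 61.8 and 48.4 CPM and Gsta2 with 33.9, 12.7, 15.9, 29.8, 15.2 and 43.7 CPM. Without kidney 6 the ratio of Gsta2 was 1.83 and the count 1 of 10.

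**Figure D4:**
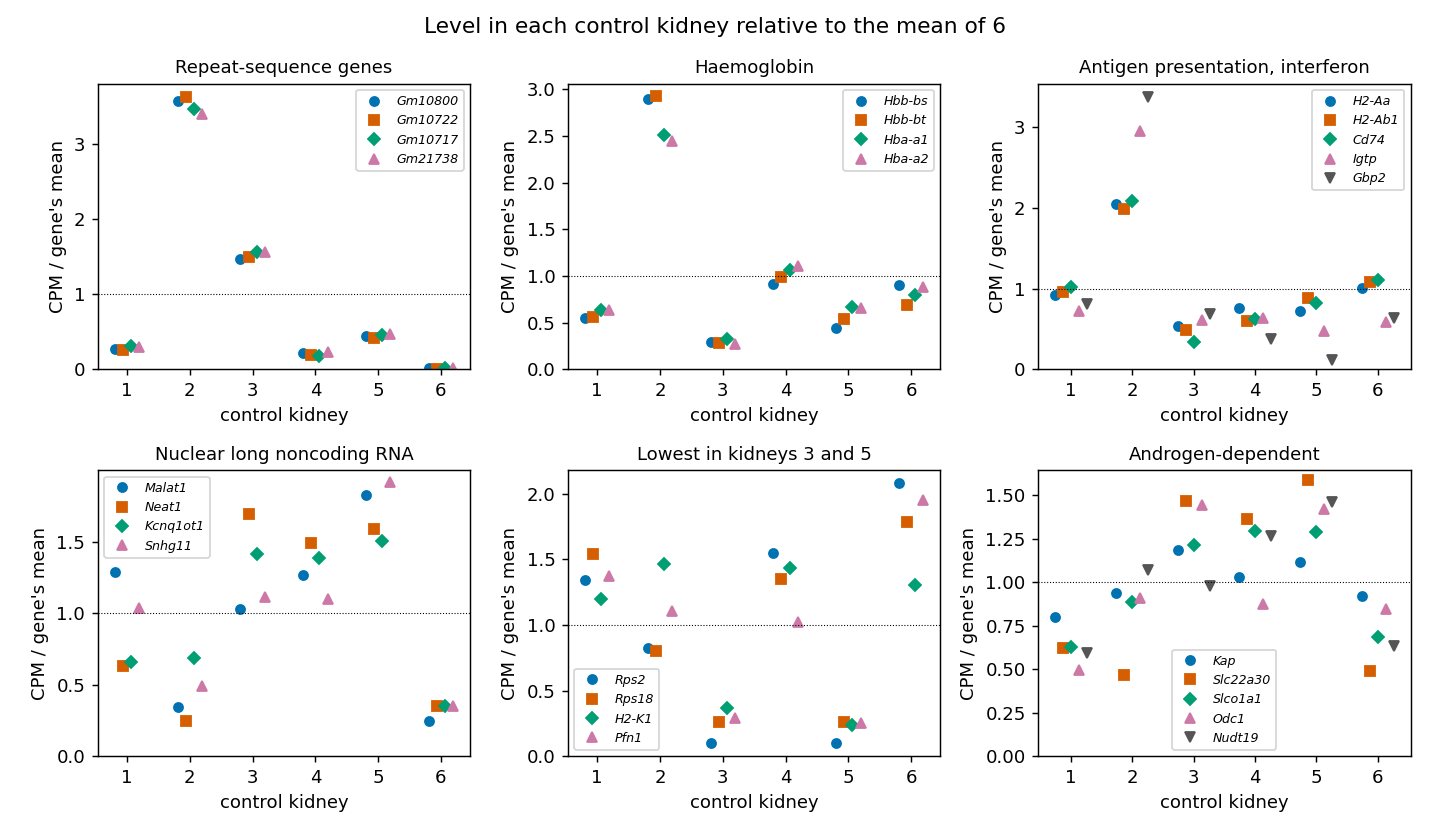
Level in each control kidney (horizontal axis, kidneys 1 to 6) as a multiple of the gene's mean over the 6 (vertical axis from 0) for 6 groups of genes, 1 symbol per gene. Repeat-sequence, haemoglobin and immune genes peak in kidney 2, nuclear noncoding RNAs are lowest in kidney 6 or, for Neat1, kidney 2, and Rps2, Rps18, H2-K1 and Pfn1 are low in kidneys 3 and 5, while Kap stays within 1.48-fold.

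The 4 rilmenidine-fed kidneys gave a second reading of spread in mice that did not enter the choice of genes. Of 382 high-spread genes kept in both sets, 167 (43.7%) also had a CV at least 2 times the expected value in the treated kidneys, against 710 of 9798 genes in all (7.25%). Rps2 had 9.42, 8.80, 267 and 8.16 CPM in treated kidneys 1 to 4, with kidney 3 high, and its ratio there was 12.6. H2-K1 had 31, 28, 227 and 29.9 CPM with the same treated kidney high, and Pfn1 had 208, 32.1, 41.1 and 196 CPM with kidneys 1 and 4 high. The ratio was 10.3 for Gm10800 and 6.35 for Slc22a19. Of the 6 high-spread androgen-dependent genes 5 were high-spread again, and of the 7 ribosomal protein genes 5.

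The haemoglobin genes and most immune genes were not high-spread again. None of the 4 high-spread haemoglobin genes, the 6 macrophage list genes, the 3 interferon-induced genes or the 3 clock genes was high-spread in the treated kidneys. Hbb-bs had 1424, 1732, 1425 and 1228 CPM there, a ratio of 1.11, and Igtp 16.6, 20.7, 19.9 and 23 CPM, a ratio of 0.645. Exceptions among genes of immunity were Ptpn22, Igha, H2-K1 and H2-D1, with ratios of 4.54, 4.04, 9.04 and 2.23 in the treated kidneys. Malat1, at 323, 334, 294 and 381 CPM, had a ratio of 0.847 in treated kidneys, and Neat1 a ratio of 1.29. The other 3 of the 5 high-spread genes of the noncoding RNA list were high-spread again, with 2.14 for Gas5, 3.58 for Kcnq1ot1 and 2.32 for Snhg11. The difference between the sets was not tested.

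**Figure D5:**
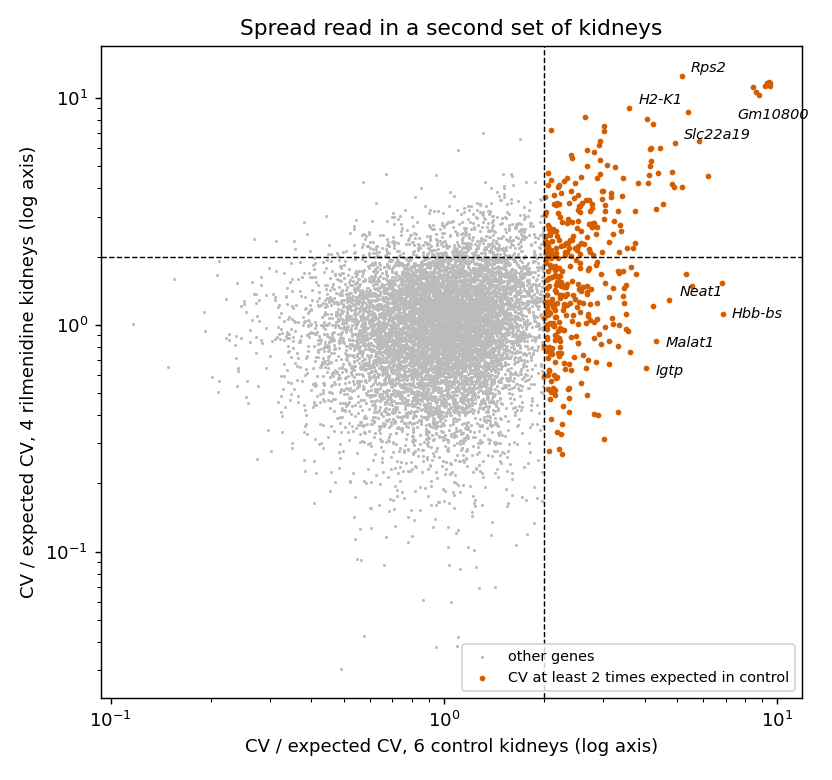
CV over expected CV in the 4 rilmenidine kidneys (vertical log axis) against the same ratio in the 6 control kidneys (horizontal log axis) for 9798 genes kept in both, with the high-spread genes of the control kidneys in orange and dashed lines at 2. Gm10800, Rps2, H2-K1 and Slc22a19 lie above 2 in both sets, whereas Hbb-bs, Igtp, Malat1 and Neat1 do so in the control kidneys alone.

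The gene classes of the high-spread genes are given as shares, with no test. Pseudogenes were 1.41% of kept genes, 8.38% of the 167 genes high-spread in both sets and 1.86% of the 215 high-spread in control kidneys alone. Genes sharing a run of 50 bases near the 3′ end with another gene were 19.7%, 32.3% and 18.1% of the same groups. For long noncoding RNAs together with unclassified transcripts (TEC), the shares were 2.17%, 3.59% and 9.30%.

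Close neighbours among the high-spread genes were compared for their extreme kidneys. Among 385 high-spread nuclear genes outside the repeat group there were 24 pairs with a gap under 0.1 Mb, and in 8 of them (33.3%) the same kidney was highest and the same kidney lowest. Of 111 pairs 0.1 to 1 Mb apart 3 (2.70%) did so, as did 4.82% of 581 pairs 1 to 10 Mb apart and 4.85% of pairs on different chromosomes. When pairs in which both genes share a run with another gene were left out, 6 of 20 close pairs (30%) remained. In 6 of the 8 pairs kidney 2 was the highest. A gene can enter several pairs, as H2-Ab1, H2-Aa and H2-Eb1 do, so the pairs are not independent. The 8 pairs included the 2 globin pairs, the class II genes H2-Ab1, H2-Aa and H2-Eb1 on chromosome 17, the guanylate-binding proteins Gbp2 and Gbp2b on chromosome 3, and the retinol dehydrogenase genes Rdh16 and Rdh16f2 on chromosome 10, of which Gbp2b and the Rdh16 pair are named after their values were seen. Rdh16f2 had 77.9, 18.1, 113, 22.3, 25.1 and 34.2 CPM and Rdh16 159, 85.6, 189, 102, 104 and 118 CPM in kidneys 1 to 6, highest in kidney 3 and lowest in kidney 2. Rdh16 was high-spread at a ratio of 2.04, which fell to 1.55 without kidney 3 and to 1.97 without kidney 2. Genotypes of the mice were not used here, so inherited and other sources of these shared extremes cannot be told apart.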

How the data were processed

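PolyA RNA of whole kidney was sequenced. The deposited values are raw read counts per gene, which the authors made, per the submitters' processing notes, with bcl2fastq 1.8.4, Trimmomatic 0.32, STAR 2.5.2b and featureCounts 1.5 on mm10. The annotation release, the strand setting and any collapsing of molecular identifiers are not given in the sources used here, so reads of genes that overlap, run antisense or have near copies may be misassigned. Names and positions came from GENCODE M21, which held 42548 of 43629 identifiers. Genes with 6 or more reads in at least 4 control kidneys were kept, and CPM was scaled by RLE in edgeR 4.0.16 (R 4.3.3). Each CV was divided by the value at its mean on a lowess line (span 0.3), and 2 was the limit for high spread. Variation beyond counting was tested by the deviance of a Poisson fit (edgeR, adjusted p at or under 0.05), which covers counting error only. Treated kidneys were handled alike, with 6 reads in at least 3 of 4.

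Genes named were the 25 most abundant, the 25 with the largest CV ratio, the 10 largest ratios at a mean of 50 CPM or more, 3 genes on each side of the limit, the 3 most abundant and all high-spread genes of each list, and tissue and sex markers, except a few genes that are not reported here. Slc12a3, Slc27a2, Csf1r, the mitochondrial genes beyond the first 3 of their list, Pfn1, Tm4sf5, Gbp2b, the Rdh16 pair and the splicing genes were named after their values were seen. The members and gene lists were chosen with earlier results of these data known. Alternatives were other normalisations, filters, spread measures (including DESeq2 1.42.0 dispersions) and thresholds, thinned counts, and kidneys left out. The calculation was tested on simulated counts.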

Additional observations from a re-analysis of the deposited data

Results flagged for a closer look

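In the genes named here, the highest or lowest kidney was set against the gap to its neighbour divided by the whole range (Dixon's test for 6 samples). This gap is large in 5.22% of all kept genes and was so in 52 of the 400 high-spread genes (13%). A kidney far from the rest raises the CV as well as the gap, so the choice of the 400 favours a higher share. Chance marks about 1 in 20 groups that were not chosen by their spread. This rate does not hold for genes named for their high spread, and no explanation was tested.

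Kidney 2 stood alone at the top for the red cell genes, with 4098 CPM for Hbb-bs, 973 CPM for Hbb-bt, 3066 CPM for Hba-a1 and a summed haemoglobin level of 8853 CPM. It did so for the immune and interferon-induced genes, at 91.0 CPM for Ptpn22, 68.7 CPM for Igtp, 33.1 CPM for Gbp2, 30.1 CPM for Gbp2b, 37.4 CPM for Iigp1, 275 CPM for H2-Aa and 65.1 CPM for Lyz2. The same held for the plasma cell genes at 35.0 CPM for Igkc and 46.4 CPM for Jchain, and for Gm17535 at 242 CPM, Alb at 12.1 CPM, Serpina1b at 33.7 CPM and the matrix gene Dcn at 123 CPM. Kidney 2 stood alone at the bottom for the endocytic receptor Lrp2 at 745 CPM and for Cd2ap at 118 CPM.

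Kidney 3 stood alone at the top for the transporter Slc22a19 at 235 CPM, Cyp7b1 at 81.2 CPM, Cyp51 at 528 CPM and Cyp24a1 at 92.9 CPM. Kidney 6 did so for the gluconeogenic Pck1 at 2032 CPM, S100g at 1363 CPM, Hsd11b2 at 123 CPM, Cyp4a12b at 125 CPM and the stress gene Clu at 205 CPM. Kidney 1 was alone at the top for Car3 at 133 CPM and the noncoding Gas5 at 99.3 CPM. Kidney 5 was alone at the top for the cell cycle inhibitor Cdkn1a at 46.1 CPM and alone at the bottom for Keg1 at 3353 CPM.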

How the results depend on the processing

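The number of high-spread genes, 400, stayed between 299 and 558 under other normalisations, filters, log2 values, edgeR dispersions, thinning and leaving out kidneys 2 and 6. It was 244 by DESeq2 dispersions, 879 by the median absolute deviation over the median, 1348 at a threshold of 1.5 and 95 at a threshold of 3, and the cause was not tested. The genes called changed as well. By edgeR dispersions 279 of the 435 genes called were among the 400, and without kidneys 2 and 6 it was 247 of 558. By DESeq2 dispersions 232 of 244 were among the 400, and by the median absolute deviation 323 of 879. Leaving out 1 kidney at a time gave 409 to 486 genes, of which 308 to 359 were shared. Of the 25 most abundant genes, 15 remained when CPM was divided by exon length in kilobases, and 22 to 25 when 1 kidney was left out. Variation beyond counting was called in 4325 genes, in 2567 of 8722 after thinning to the smallest library, which leaves fewer reads a gene, and in 3333 to 4161 with 1 kidney left out. The share of high-spread genes found again in the treated kidneys was 39.0% at a threshold of 1.5 and 50% at 3. Of 151 named genes, the limit of 2 was lost for 1 under TMM normalisation, 28 by edgeR dispersions and 33 by DESeq2 dispersions. Depth limits genes under 10 CPM, where the median counting CV was 32.3%. No paired analysis was possible because each result is a spread over a whole set of kidneys, with no test between the control and treated sets.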

Other observations

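Several lists held too few reads to describe. None of the 10 neutrophil genes and none of the 21 major urinary protein genes was kept, and 11 of the latter had no read in any control kidney. Of 10 kept glucocorticoid-responsive and metallothionein genes, Angptl4 and Cdkn1a were high-spread. The most abundant gene of the perirenal fat list, Fabp4, which also marks endothelium, was not high-spread.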
